A study of Homo sapiens with 2 samples.

Results

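The genes that pattern the border between midbrain and hindbrain were followed, with GBX2 at their centre, in H9, a line of human embryonic stem cells. The members were 10 genes: the transcription factors GBX1, GBX2, OTX1, OTX2, EN1, EN2, PAX2 and PAX8 and the secreted factors FGF8 and WNT1. They were found as the probes whose RefSeq accession in the array design belongs to a member gene. This gave 13 probes of the 58201 non-control probes and 10 of the 22435 genes that could be named. Of the members, 7 genes had 1 probe and 3 genes (OTX1, PAX2 and WNT1) had 2.

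RNA of each group was read on 1 single-colour Agilent expression array, on the same slide and in the same scan. The first group was H9 substate 1 at passage 35, and the second was H9 substate 2 at passage 50. Both groups came from the same line. In the study, H9 cells were kept in the defined medium TeSR-E8 on Vitronectin XF and moved at passage 35 to the basement membrane extract Matrigel. Both substates were described on Matrigel, but the study does not state the matrix of the cells on each array. Colony staining set the substates apart in the study, with strong R-10G epitope (a keratan sulphate marker of pluripotent cells) and no surface vimentin in substate 1, and weaker R-10G with vimentin in substate 2. Passage went with substate, so the effects of passage and substate cannot be told apart. The same holds for any difference in matrix or in time on Matrigel. With 1 array per group, no difference on the arrays has a replicate check, no test was possible and no p-value is given. The arrays measured bulk RNA, in which fewer cells that express a gene and less RNA per cell cannot be told apart.

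In the embryo, the isthmic organiser forms where OTX2, expressed in the forebrain and midbrain, meets GBX2, expressed in the anterior hindbrain, and each of these homeodomain factors represses the other. The organiser secretes FGF8 and WNT1, and the homeodomain factors EN1 and EN2 and the paired-box factors PAX2, PAX5 and PAX8 are switched on around it. Several of these genes also act elsewhere. OTX2 is expressed in pluripotent cells before any neural tissue forms, and PAX2 and PAX8 are factors of the kidney, the thyroid and the inner ear.

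The signal of a probe is the background-subtracted and detrended brightness of its spot in arbitrary units, and the error after each signal is the scanner software's own estimate for that 1 spot. Normalised values are log2 of the signal minus the 75th percentile of the same array, which was a signal of 314 in substate 1 and of 275 in substate 2. Differences are substate 2 minus substate 1 on this log2 scale. A probe is called measured where the software marked its spot as well above background, which held for 57.4% of the non-control spots in substate 1 and 54.7% in substate 2. The lowest signal marked in this way was 14.5 and 15.0, respectively. The Z-score of a difference is its distance from the mean of all 58201 probes in SDs, and its limits of 2 lay at 2.53-fold higher and 2.29-fold lower. Measured spots of the same probe printed many times differed by little within an array. Combined over both arrays, this spread gives an SD of 0.07 for a difference between single spots. It leaves out dim spots and any difference in labelling or hybridisation between the arrays, so it is a lower limit of the noise. Markers of pluripotent stem cells were compared between the groups. Of 8 listed markers 6 had a named probe, and all 6 were measured on both arrays. Their differences lay between 0.07 and 0.42.

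GBX2 and PAX8 were the members with the largest differences, and both were higher in substate 2. The differences of OTX2 and EN2, which both arrays measured, were -0.04 and 0.30. OTX1 was 1.85-fold lower in substate 2, and EN1 was measured in substate 2 only. GBX1, PAX2, FGF8 and WNT1 were not well above background on either array. Thus 6 of the 10 genes were measured on at least 1 array, and the organiser's 2 secreted signals were not among them.

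**Figure D1:**
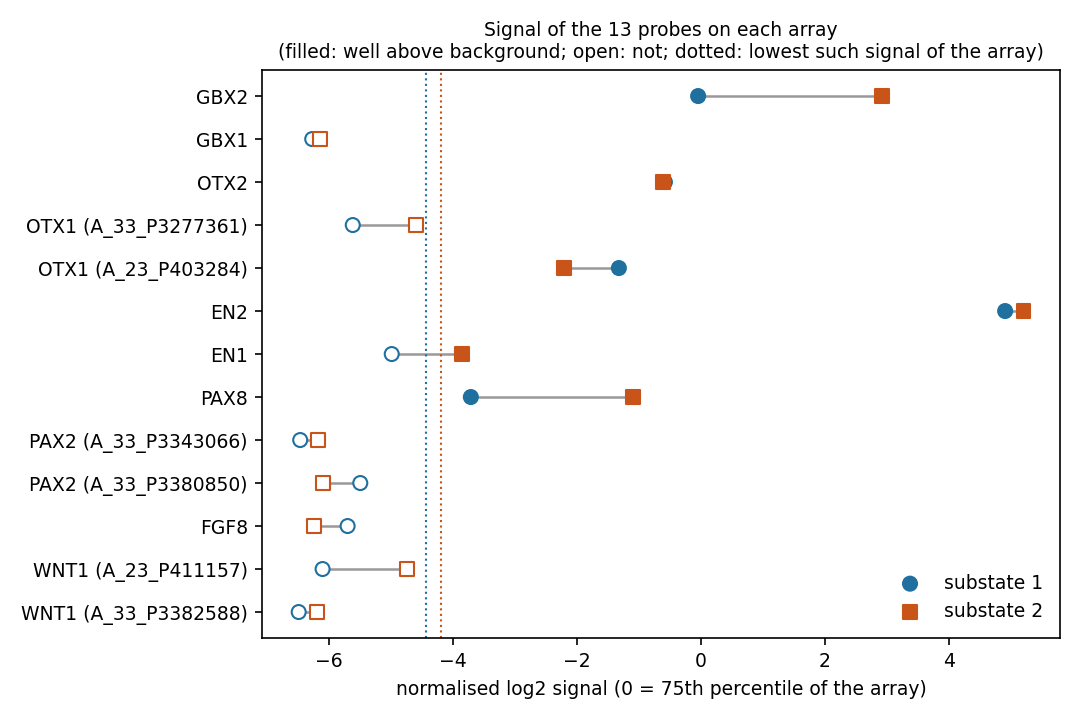
Normalised log2 signal of the 13 probes, where 0 is the 75th percentile of the array, in substate 1 (blue circles) and substate 2 (orange squares). Filled symbols are well above background, open symbols are not, and dotted lines mark the lowest signal well above background on each array. GBX2 and PAX8 have the longest distance between filled symbols, and 7 probes have open symbols on both arrays.

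By the Z-score, 3 of the 13 member probes lay past the upper limit, beside 3.03% of all 58201 probes, and 0 lay past the lower limit, beside 3.3%. The 3 probes were those of GBX2 and PAX8 and 1 of the probes of WNT1, which neither array measured. Among the 29883 probes measured on both arrays, 0.355% lay past the upper limit and 0.622% past the lower. Of the 5 members in that group 2 were past the upper limit, GBX2 and PAX8. By a limit of 2-fold among the 33166 probes measured on at least 1 array, 2 of 6 member probes were higher, again GBX2 and PAX8, beside 1.55% of those probes. None of the 6 was lower, beside 1.67%. These shares do not stand as independent evidence, because these arrays entered the choice of the members. The study chose GBX2 from these arrays together with predicted targets of microRNAs from its microRNA arrays, and then measured it by RT-PCR. The other members were gathered around GBX2 with earlier results known.

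**Figure D2:**
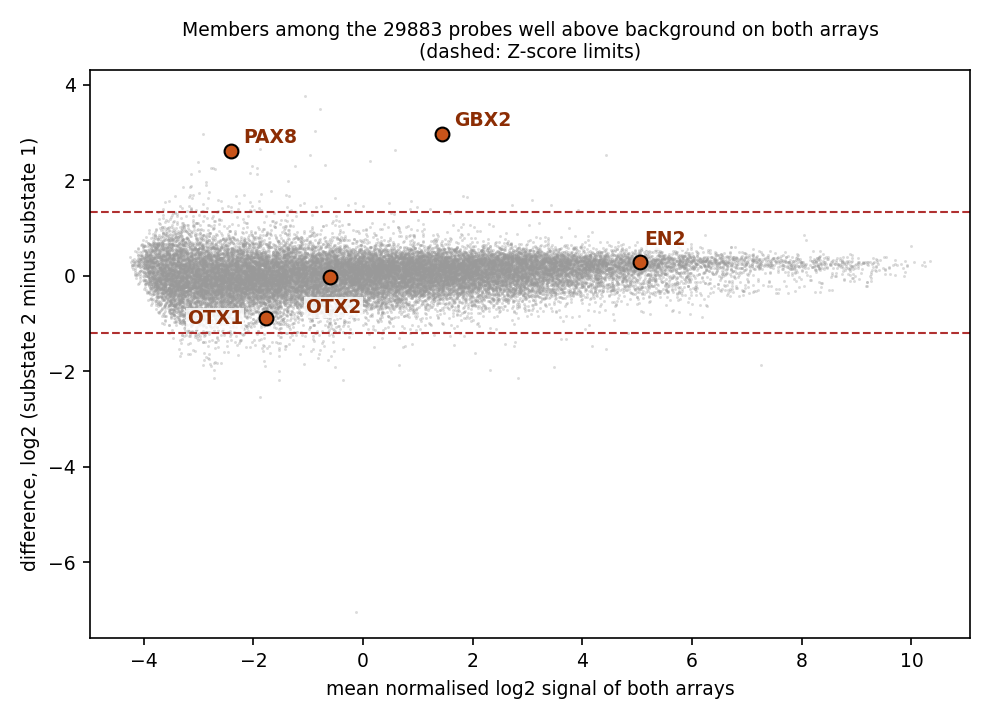
Difference (log2, substate 2 minus substate 1) against the mean normalised log2 signal of both arrays for the 29883 probes measured on both (grey), with the 5 member probes among them in orange. Dashed lines mark the Z-score limits. GBX2 at 2.97 and PAX8 at 2.61 lie above the upper line, and OTX1, OTX2 and EN2 lie between the lines.

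GBX2, a homeodomain factor required for the anterior hindbrain, gave a signal of 304 ± 30.5 in substate 1 and 2086 ± 209 in substate 2. The spots were bright on both arrays, with a median pixel of 411 over a local background of 38 in substate 1 and of 2536 over 39 in substate 2. The probe (A_33_P3423969) was thus read far from the background in both states, and on the normalised scale it went from -0.05 to 2.92. Its difference of 2.97 ± 0.20, a Z-score of 4.58, was the 6th highest of the 29883 probes measured on both arrays. By gene, it ranked 5th of 15999. GBX2 has only this probe, so no other probe of the gene is there to compare it with. Apart from the arrays, the study measured GBX2 by real-time RT-PCR in cells of both substates. It reported GBX2 as significantly higher in substate 2. The 250 bases upstream of its start in RefSeq (GRCh38.p14, chr2:236168387-236168636, minus strand) are shown beside those of PAX8 (chr2:113278922-113279171, minus strand), the other member past both limits, so that the upstream sequences of the members that differed can be read together. Both are printed 5′ to 3′ along the gene, and capitals mark CCAAT, a short motif bound by NF-Y.

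GBX2: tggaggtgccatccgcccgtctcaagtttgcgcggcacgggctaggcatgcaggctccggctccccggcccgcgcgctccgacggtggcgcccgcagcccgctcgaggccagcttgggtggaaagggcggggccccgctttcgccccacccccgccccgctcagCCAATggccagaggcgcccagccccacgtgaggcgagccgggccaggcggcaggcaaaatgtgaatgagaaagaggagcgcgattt

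PAX8: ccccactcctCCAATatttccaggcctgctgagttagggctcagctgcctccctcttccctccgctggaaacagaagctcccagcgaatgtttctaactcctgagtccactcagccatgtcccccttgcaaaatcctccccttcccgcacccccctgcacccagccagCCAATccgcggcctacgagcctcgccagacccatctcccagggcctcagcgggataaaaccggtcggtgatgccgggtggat

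The GBX2 window holds 28 CG pairs and 72.0% G and C, and the PAX8 window holds 11 and 61.6%. The medians of all 34788 upstream windows of this length in the RefSeq table are 11 and 58.0%. CCAAT occurs once in the GBX2 window and at 2 places in the PAX8 window when both strands are read, and 32.0% of all windows hold it. The window of OTX1 and 1 of the windows of OTX2, genes that were lower or little different in substate 2, also hold it, at 1 place each, so that it does not set the higher members apart. It was picked after the windows were seen. The homeodomain core TAATTA, the OTX-type TAATCC and the E-box CACCTG were searched on both strands in the 10 windows of the 8 members in the table and found in none. They occur in 4.37%, 5.61% and 17.5% of all windows, respectively. EN1 and FGF8 were not among the members with a window.

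GBX1, the paralogue of GBX2 with a later and more restricted role in the neural tube, gave 4.05 ± 4.06 in substate 1 and 3.86 ± 3.88 in substate 2. Each signal was smaller than its own error. GBX2 was therefore the only member of the pair that the arrays measured.

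OTX2, which marks the territory in front of the border and is also made by pluripotent cells, gave 209 ± 21.2 in substate 1 and 179 ± 18.3 in substate 2. After normalisation its levels were -0.58 and -0.62, and the difference of -0.04 ± 0.21 was well inside the Z-score limits. Its sign changed in 2 of 7 settings, where it ranged from -0.10 to 0.02, so no direction is given. The partners of the OTX2 and GBX2 border thus differed by unequal amounts between the substates.

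OTX1, a close relative of OTX2 with roles in the forebrain and midbrain, had 2 probes that did not go the same way. The measured probe (A_23_P403284) gave 125 ± 12.9 in substate 1 and 59.5 ± 6.70 in substate 2. Its difference of -0.89 ± 0.22 was the 580th lowest of 29883 probes, and the gene was the 261st lowest of 15999. Its Z-score of -1.51 lay inside the limit over all probes. It was past the lower limit when only probes measured on both arrays entered the Z-score and when the SD was taken from the median absolute deviation. Its difference was -0.49 after normexp background correction of the median pixels, which adds a constant of 50 to each corrected signal, and in which it was also past the limit, and between -0.95 and -0.84 in the other settings. The second probe (A_33_P3277361), designed on another transcript record, gave 6.38 and 11.3, with a difference of 1.01 ± 0.81, and was not well above background on either array.

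EN2, a homeodomain factor of the midbrain and anterior hindbrain, gave 9419.6 ± 942 in substate 1 and 10156 ± 1016 in substate 2. Both signals lay far above the array's 75th percentile, at normalised levels of 4.91 and 5.20. The difference was 0.30 ± 0.20, or 1.23-fold, and 22.4% of the probes measured on both arrays had a higher difference. EN2 was therefore read at high signal in both substates.

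EN1, its paralogue, was read close to the background. It gave 9.86 ± 3.34 in substate 1, where it was not well above background, and 19.0 ± 3.85 in substate 2, where it was. This is a difference of at least 1.50-fold, with a Z-score of 1.68 that lay inside the limit. The pixel medians were 68 over 42 and 80 over 40.5, so the spots of the arrays differed by few units of brightness. After normexp correction the difference was 0.33.

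PAX8, a paired-box factor with roles in the midbrain-hindbrain border, the inner ear, the thyroid and the kidney, gave 23.9 ± 3.92 in substate 1 and 128 ± 13.2 in substate 2. It was well above background on both arrays, at normalised levels of -3.71 and -1.10. The difference was 2.61 ± 0.28, or 6.11-fold, with a Z-score of 4.01. It was the 12th highest of 29883 probes and the 9th highest of 15999 genes. The substate 1 spot was dim, with a median pixel of 83 over 38 against 193.5 over 40 in substate 2. After normexp correction, which changed the input signal as well as adding 50, the difference was 1.23, and in the other settings it lay between 2.55 and 2.66. PAX8 lay past both limits in every one of these settings.

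PAX2, which opens the paired-box sequence at the border and is also a factor of the kidney and optic stalk, had 2 probes that neither array measured. The signals were 3.54 and 3.79 for the first (A_33_P3343066) and 6.94 and 3.99 for the second (A_33_P3380850), in substate 1 and substate 2 in turn. Their differences of 0.28 and -0.61 had opposite signs, whereas after normexp correction both were above 0, with 0.36 and 0.17. PAX8 was thus the only paired-box member that was measured.

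FGF8, the organiser's main growth factor, gave 6.02 in substate 1 and 3.63 in substate 2 and was not well above background on either array. WNT1, the ligand of the posterior midbrain, gave 4.55 ± 3.58 and 10.2 ± 4.24 with its first probe (A_23_P411157). The difference of 1.36 ± 1.28 had a Z-score of 2.03 and so lay past the limit, although neither spot was well above background. After normexp correction it was 0.17, with a Z-score of 0.34, and no longer past the limit. With its second probe (A_33_P3382588), WNT1 gave 3.48 and 3.76, a difference of 0.30. No fold is given for these probes. Over all 7 probes that neither array measured, signals lay between 3.48 and 11.3 and the software's errors between 3.02 and 4.24, and 5 of the differences were smaller than their own errors.

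**Figure D3:**
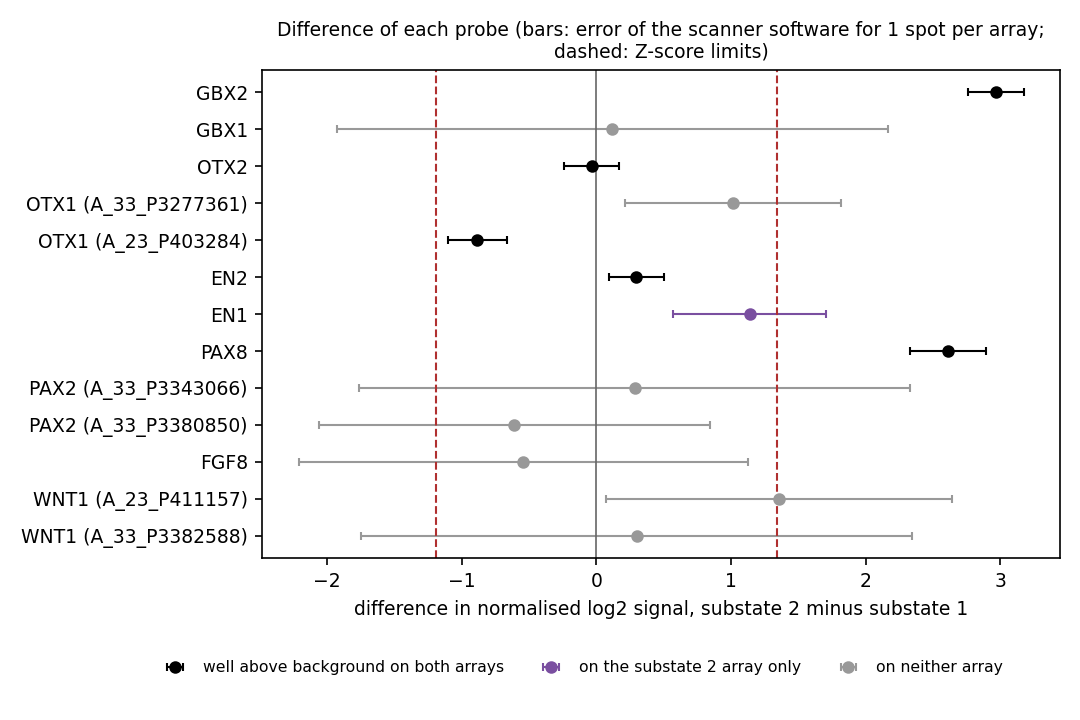
Difference of each of the 13 probes in normalised log2 signal, substate 2 minus substate 1, with bars for the scanner software's error of 1 spot per array and dashed lines at the Z-score limits. Black points were measured on both arrays, the purple point in substate 2 only and grey points on neither array. GBX2 and PAX8 lie past the upper limit with their whole bars, whereas the WNT1 probe at the limit has a bar that reaches from near 0 to over 2.

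The genes beside the members on the chromosome were listed as the nearest 2 with a named probe on each side in RefSeq gene order, a choice made after the data were seen. They were 40 genes with 62 probes, of which 32 genes were measured on both arrays. Their median difference was 0.02, none was 2-fold higher and 1 was 2-fold lower, C1QL2 beside EN1 with -1.07. Beside GBX2, the probes of AGAP1 differed by 0.23 and -0.10, those of SH3BP4 by 0.23 and -0.07 and those of DRC11 by -0.02 and -0.16. ASB18, on the same side as DRC11, was measured in substate 2 only, with 15.1 ± 3.46 in substate 1 against 23.6 ± 4.06. The difference was 0.84 ± 0.41, or 1.79-fold higher. This is no lower limit, because the dim spot's own value set the bound. The genes around GBX2 that both arrays measured were thus all under 2-fold.

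PAX8 overlaps an antisense transcript, PAX8-AS1, whose 5 probes disagreed. One probe (A_22_P00012501) was measured in substate 1 only, with 30.8 ± 4.32 against 10.3 ± 3.40, and was at least 1.80-fold lower in substate 2. Another (A_21_P0014709) was measured in substate 2 only, with 9.66 ± 3.48 against 18.5 ± 3.95, and was at least 1.45-fold higher. The other 3 were not well above background on either array. PSD4, on the other side of PAX8, differed by 0.56 and 0.26. Beside OTX1, WDPCP differed by -0.64 and -0.72, DBIL5P2 by -0.45 and the measured probe of EHBP1-AS1 by -0.67, whereas EHBP1 differed by 0.06 and -0.03.

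Across the wider gene lists, counts are read beside the 15999 named genes measured on both arrays, of which 59.8% had a difference above 0, with a median of 0.08. By 2-fold, 0.931% of those genes were higher and 1.07% lower. Another 14 factors of the isthmic organiser, mostly transcription factors and FGF ligands that act with the members, had 11 genes measured on both arrays, 8 higher and 3 lower, with a median of 0.31 and none past 2-fold. The farthest were HES3, a repressor that keeps the organiser undifferentiated, from 89.5 ± 9.44 to 147 ± 15.0 (0.90), and its relative HES1, from 94.9 ± 10.1 to 46.8 ± 5.99 (-0.83). PAX5, the third paired-box factor of the border, and FGF17 were measured on neither array.

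Receptors and feedback genes of FGF8 signalling were nearly all measured, although the ligand was not. Of 16 genes 15 were measured on both arrays, 9 higher and 6 lower, with a median of 0.13 and none past 2-fold. SPRY2, a feedback inhibitor of receptor tyrosine kinases, differed by 0.63 and the ETS factor ETV5 by 0.56. FLRT3, a membrane protein that binds FGF receptors, was the exception at the limits, with 6.85 ± 3.06 in substate 1, not well above background, and 37.9 ± 4.95 in substate 2. It was at least 2.99-fold higher, with a Z-score of 4.08.

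Receptors and targets of WNT1 signalling had 19 of 20 genes measured on both arrays, 8 higher and 11 lower, with a median of -0.06. LEF1, a transcription factor that acts with beta-catenin, was the only gene of the list past 2-fold, from 86.4 ± 9.12 to 157 ± 16.0, a difference of 1.05 whose Z-score, 1.54, lay inside the limit. RNF43, a ubiquitin ligase that removes WNT receptors, differed by -0.73 from 318 ± 31.9 to 168 ± 17.1. The feedback gene AXIN2, named after its values were seen, differed by 0.72 and 0.59 with its probes.

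**Figure D4:**
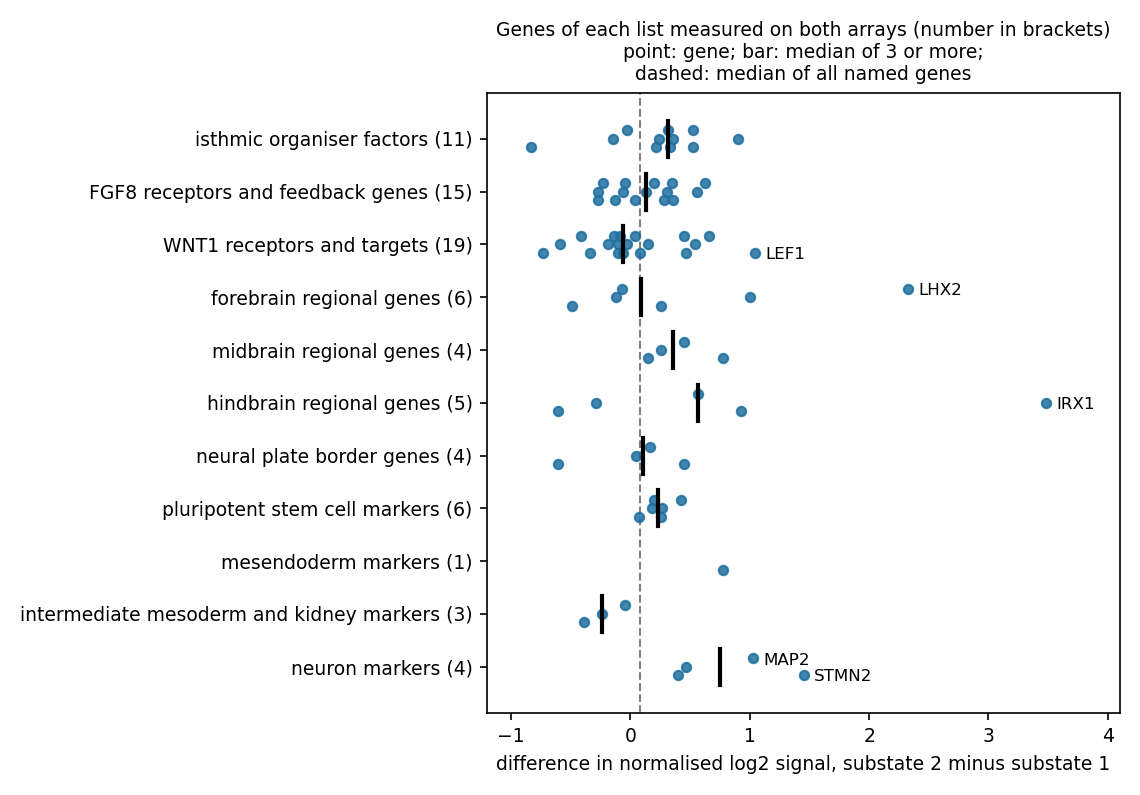
Difference in normalised log2 signal, substate 2 minus substate 1, of the genes of each list that were measured on both arrays, with their number in brackets. Points are genes (means over measured probes), bars are medians of 3 genes or more, and the dashed line is the median of all 15999 named genes measured on both arrays, 0.08. IRX1 at 3.48 and LHX2 at 2.32 stand apart from the other genes of their lists.

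Genes that mark regions of the brain were mostly near background. Of 14 forebrain genes 6 were measured on both arrays, 3 higher and 3 lower, with a median of 0.09. LHX2, a LIM homeodomain factor of the eye field and cortex, differed most, from 86.7 ± 9.57 to 381 ± 38.3, which is 5.01-fold, with a Z-score of 3.56. RAX, a factor of the eye field, gave 24.2 ± 4.07 and 42.5 ± 5.49 with its measured probe, a difference of 1.00, and -0.26 with a probe near background.

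Of 12 midbrain genes 4 were measured on both arrays, all higher, with a median of 0.35 and none past 2-fold. FOXA2, a factor of the floor plate that is also an endoderm marker, differed by 0.77, and PAX7 by 0.72 and 0.18. GATA2 was measured in substate 1 only, with 17.8 ± 3.98 against 3.80 ± 3.81, and was at least 1.04-fold lower, a bound close to no difference although its Z-score was -3.34.

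Of 13 hindbrain genes with a probe, 5 were measured on both arrays, 3 higher and 2 lower, with a median of 0.56. IRX1, an Iroquois homeodomain factor of the neural plate and hindbrain, had the highest difference of all 15999 genes, from 54.3 ± 6.34 to 532 ± 53.3, which is 11.2-fold. Its relative IRX3 differed by 0.92, from 52.2 ± 6.25 to 86.9 ± 9.43, inside the limit. HOXA2, HOXB1 and HOXB2, which mark hindbrain segments, were measured on neither array. The forebrain and hindbrain lists thus each held 1 gene past both limits.

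Markers of other cell types were read beside the members. Of 6 neuron markers 4 were measured on both arrays, all higher in substate 2, with a median of 0.75. ELAVL3 and NEUROD1 were measured on neither. The summed signal of the list, before normalisation, was 6566 in substate 1 and 8643 in substate 2, mostly from TUBB3 with 4892 and 5943. STMN2, a microtubule regulator of neurons, went from 191 ± 19.4 to 458 ± 46.0 (1.45), and the microtubule protein MAP2 differed by 1.03. TUBB3 differed by 0.47 and DCX by 0.61 and 0.19, and of these markers only STMN2 lay past the Z-score limit. The 4 measured neuron markers thus went in the direction of GBX2 and PAX8, by smaller amounts. Their part in these differences was not tested.

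Of 8 markers of intermediate mesoderm and kidney, tissues that express PAX8, 3 were measured on both arrays, and none was higher on the normalised scale, whereas after normexp correction 2 of the 3 were. EYA1 differed by -0.39 with the probe measured on both. OSR1, WT1, SIX2, HOXD11 and GATA3 were measured on neither array, and the summed signal of the list was 319 in substate 1 and 254 in substate 2. Of 8 mesendoderm markers FOXA2 alone was measured on both arrays, and TBXT, MIXL1, EOMES, GSC, SOX17 and GATA6 on neither. GATA4 had 1 probe measured in substate 1 only, with 17.7 ± 3.46 against 8.60 ± 3.21. GSC gave 6.94 ± 3.62 and 17.3 ± 4.17, with a Z-score of 2.27 past the limit although neither spot was well above background. The summed signals of the list were 120 and 133. Of 11 genes of the neural plate border 4 were measured on both arrays, 3 higher and 1 lower, with a median of 0.11. MSX1 had the largest difference there, -0.61. The pluripotency genes POU5F1, with 0.29 and 0.24, and NANOG, with 0.42, differed by amounts inside the Z-score limits, and the median of the 6 markers went from 0.23 to 0.07 with quantile normalisation and 0.04 with the loess.

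The 5 genes measured on both arrays whose difference was nearest to that of GBX2 were TMEM119 (2.96), CNTFR (3.00), PANTR1 (3.02), IGFBP5 (3.03) and CDH6 (2.83). Likeness here is the gap between differences over 2 arrays only. TMEM119, a membrane protein, went from 14.8 ± 3.23 to 101 ± 10.6, and CNTFR, a receptor subunit for ciliary neurotrophic factor, from 30.9 ± 4.37 to 217 ± 21.9. IGFBP5, which binds insulin-like growth factors, went from 59.9 ± 6.75 to 429 ± 43.0, and the cadherin CDH6 from 36.8 ± 4.87 to 230.2 ± 23.3. The noncoding RNA PANTR1 had another probe measured in substate 2 only, at least 4.69-fold higher.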

How the data were processed

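Total RNA of 1 sample per group was labelled with Cy3, and both arrays lay on the same slide. The authors deposited scanner output in which, per the file headers, Feature Extraction 11.5.1.1 gives an intensity, its error and flags for each spot. They also deposited a matrix of log2 values, which differed from the values computed here by a constant per array for 100% of probes within 0.01. Here the processed intensity was floored at 1 (0 spots were lower), log2 was taken, replicate spots were averaged and the array's 75th percentile was subtracted. No spot was saturated. After the study's methods, the Z-score ran over all 58201 probes (mean 0.07, SD 0.63). A probe measured on 1 array got a bound against the dim array's lowest signal well above background or the dim probe's own value, whichever was higher. A probe measured on neither array got no fold. Fold changes are on the normalised scale.

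Probes were named by RefSeq accession through the table of GRCh38.p14, which matched 31100 of 58201 probes. The array design was drawn on an earlier build, so the table served for names and gene order, and the upstream windows are its own sequences. Gene values are means over probes measured on both arrays. The genes named in the text are all members, in each list the genes past the Z-score limits on a measured probe and those with the largest differences, and the 5 genes nearest to GBX2. Neighbouring genes, and listed genes given as measured on neither array, were named beyond this rule after their values were seen. So were AXIN2, TUBB3, DCX, GATA4 and the genes of the closing observations. Members and lists were chosen with earlier results of these data known. The median and quantile scalings, a loess on mean signal and normexp with an offset of 50 (limma 3.58.1 in R 4.3.3) were alternatives, and other steps ran in Python 3.11.15. The calls were tested on simulated data. The number of arrays limits the precision.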

Additional observations from a re-analysis of the deposited data

How the results depend on the processing

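Of the 13 member probes, the counts past 2-fold stayed at 2 higher and 0 lower in each alternative run. The Z-score counts of 3 higher and 0 lower held under the other scalings of the processed intensity, with the deposited matrix and with outlier spots kept. Over probes well above background on both arrays, the counts were 2 higher and 1 lower (OTX1), and over those on at least 1 array 2 and 0. When the median absolute deviation gave the SD, 5 were higher (GBX2, PAX8, EN1, and probes of OTX1 and WNT1 that neither array measured) and 2 lower (OTX1 and PAX2). With normexp on the median pixel and background, a choice made after seeing the files, 2 were higher (GBX2 and PAX8) and 1 lower (OTX1). The median of all named genes moved between 0.02 and 0.13 across scalings. Naming by the gene symbol of the array and normexp on the mean signal were not run, because the scanner output used here holds no such columns. No paired analysis was possible because each group has 1 array. Dim spots set the limit for GBX1, PAX2, FGF8, WNT1 and EN1, whose signals lay near the background on at least 1 array.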

Other observations

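Several other regulators of neural and border regions had a Z-score past the limits on probes that neither array measured, and are given as signals only. MEIS2, a cofactor of HOX and PAX proteins in the midbrain, gave 3.25 ± 3.27 in substate 1 and 16.2 ± 3.87 in substate 2. ZIC1, a zinc finger factor of the neural plate border, gave 3.07 ± 3.09 and 15.0 ± 3.56. Both probes were thus near their array's lowest signal well above background in substate 2. A probe of CNPY1, from the isthmic organiser list, was also higher, with 3.70 ± 3.71 and 8.44 ± 4.17. BARHL1 went the other way, with 14.5 ± 3.96 and 3.67 ± 3.69. So did DLX3, another gene of the neural plate border list, with 11.7 ± 3.77 and 4.17 ± 4.18. The eye field factor SIX3 gave 9.45 ± 3.25 and 3.42 ± 3.44, and the midbrain factor HELT gave 9.48 ± 3.22 and 3.27 ± 3.28. No fold is given for these genes.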
